A study of Mus musculus with 77 samples.

Results

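The transcripts described here are 32 messenger RNAs of the synaptic vesicle and release machinery, measured in RNA bound to Argonaute 2 (AGO2) in the bed nuclei of the stria terminalis (BNST) of mice. The members were chosen by gene symbol as rows of the table of AGO2-bound mRNA, and all 32 were among its 16587 genes. That table holds only genes with at least 1 CPM (reads scaled to the size of the library) in at least 3 pools, a filter that all 32 members had passed, and no member was at 0 reads in any pool. The number of reads of a member in a single pool ran from 15 (Rab3b) to 8819 (Bsn).

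Neurotransmitter is stored in synaptic vesicles and is released when a vesicle fuses with the presynaptic membrane. The SNARE proteins (synaptobrevin on the vesicle, syntaxin and SNAP-25 on the plasma membrane) draw the membranes together, synaptotagmins sense calcium, complexins act on the assembled SNAREs, and NSF with its SNAP adaptors takes the complex apart again. Scaffold proteins of the active zone (bassoon, piccolo, RIM, ELKS and Munc13) hold and prime vesicles at the release site, and synapsins tether the reserve vesicles. The BNST belongs to the extended amygdala, consists largely of GABA neurons and is known for its part in sustained anxiety-like states.

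AGO2 is the protein that carries miRNAs and holds the mRNAs that they pair with, so that immunoprecipitation of AGO2 followed by sequencing reads the mRNAs it was bound to. The mice were male C57BL/6Crl (so labelled, and C57BL/6NCrl in the study's methods) of 8 weeks of age at dissection, and each library was made from the pooled BNST punches of 3 mice. Chronic social defeat stress (CSDS), daily defeat of the mouse by an aggressor that is then kept behind a perforated divider, had ended 6 to 8 days earlier. Defeated mice were sorted by a social avoidance test into susceptible mice, which avoided a social target, and resilient mice, which behaved like controls, and mice at the ends of the range were used. Control mice were kept next to an unfamiliar mouse without defeat. There were 5 control, 5 resilient and 4 susceptible pools for mRNA, and 5, 5 and 3 pools of these kinds for miRNA. A pool averages over its mice, and nothing in the labels tells which cohort of mice a pool came from.

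Depth, as reads summed over the 16587 genes, was 4496314 to 6162932 in control pools, 3701281 to 10659882 in resilient pools and 5146998 to 7604641 in susceptible pools. Resilient pool 3 was the deepest and resilient pool 5 the shallowest, with 4 and 240 genes at 0 reads. Values are log2 CPM, the size of a rise or fall is in log2 units, and gene coordinates are those of GRCm38. The difference of each group from the controls was fitted with limma over all genes, and a gene was called at p under 0.05 with a fold change of at least 1.2. The defining markers of neurons were present throughout: all 12 pan-neuronal markers and all 8 markers of GABA neurons had reads in each of the 14 pools.

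To show what AGO2-bound means at the level of sequence, sites for miRNAs that are known to act on release genes were located in the longest annotated 3′ UTR of each member (GRCm38, GENCODE M21). Of the 5 miRNAs considered, the mature sequence of 3 was found in RefSeq (GRCm38.p6). For miR-485-5p and miR-34c-5p it was not, so that no separate search for their sites was made. They are written 5′ to 3′ with the seed, bases 2 to 8, in capitals. miR-137-3p lies at chr3:118433901-118433923, miR-153-3p at chr12:117250860-117250881 and miR-34a-5p at chr4:150068473-150068494, all on the plus strand.
miR-137-3p: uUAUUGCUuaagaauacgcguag
miR-153-3p: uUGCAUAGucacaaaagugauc
miR-34a-5p: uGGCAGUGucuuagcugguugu

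Each seed was searched as its reverse complement on the transcript strand only, and no match overlapped another. The letters searched were AGCAATA for miR-137-3p. For miR-153-3p they were CTATGCA. For miR-34a-5p they were CACTGCC. The windows of 30 bases below are a selection, 1 per miRNA for some of the members whose values are described in full, with the match in capitals and with the coordinates of the match.
Syt1 (miR-137-3p, chr10:108500318-108500324, minus strand): ctcttcttttaAGCAATAtgatgtgtagat
Syt1 (miR-34a-5p, chr10:108500347-108500353, minus strand): cttcatcatacCACTGCCctccaaatctac
Snap25 (miR-153-3p, chr2:136782219-136782225, plus strand): ttaatctagagCTATGCAcaccaaattgct
Vamp2 (miR-153-3p, chr11:69090986-69090992, plus strand): atttgcatctgCTATGCAatagcccctctc
Vamp2 (miR-34a-5p, chr11:69091894-69091900, plus strand): attacccccatCACTGCCcagctcctctga
Cplx2 (miR-34a-5p, chr13:54380324-54380330, plus strand): ttcatgctcccCACTGCCaggaggaccact
Pclo (miR-153-3p, chr5:14861641-14861647, plus strand): ctagaatcgctCTATGCAacaccagttctt

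Syt1 carried 5 matches in all (3 of them for miR-34a-5p), Vamp2 carried 4, and Cplx2 carried 2. The miR-153-3p match was in the UTR of 8 of 32 members (25.0%) and of 10.1% of 13937 genes. For miR-137-3p the match was in 6 members (18.75%) against 11.2% of genes, and for miR-34a-5p in 7 members (21.9%) against 19.5%. The UTRs of the members were longer, with a median of 2446 bases against 1428 for all genes, so that matches are also given per length. Per kilobase of UTR there were 0.0915 miR-153-3p matches in the members and 0.0608 in all genes, 0.0686 and 0.0691 for miR-137-3p, and 0.137 and 0.131 for miR-34a-5p. A match describes the sequence and does not show binding.

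The first question was whether AGO2-bound release machinery transcripts differed between defeated and control mice. In susceptible pools 14 of 32 members fell and 0 rose in limma, while at an unadjusted p under 0.05 alone 17 were lower and 1 was higher, where 21.2% of all genes passed in either direction. Among them were Cplx2 (complexin 2), Syt11 (a synaptotagmin that does not bind calcium), Pclo (piccolo), Vamp2 (synaptobrevin 2) and Syn1 (synapsin I), which also had an adjusted p under 0.05. Of all genes, 9.28% were called lower and 9.65% higher in the same comparison, and 1.71% were lower at an adjusted p under 0.05, against 5 of 32 members. These 5 became 0 without the mean-variance trend or without control pool 1, control pool 5, susceptible pool 2 or susceptible pool 4, became 1 without control pool 2, 3 or 4, and became 9 without resilient pool 3. Relative to the pan-neuronal markers, Cplx2 (-0.54) was still called and Syn1 (-0.26), Vamp2 (-0.21), Pclo (-0.20) and Syt11 (-0.18) were not. In resilient pools 10 members fell and 1, Unc13a (Munc13-1, a priming factor), rose, where 9.04% of all genes were called lower and 8.65% higher. In the resilient pools no member reached an adjusted p under 0.05 in limma on the deposited values, the smallest being 0.0517 (Syn1), and 0.633% of all genes were lower at that threshold. That number stayed at 0 on voom values made from the recovered reads but became 8 with sample weights, 1 with quantile normalisation, 2 among genes averaging 2 or more log2 CPM, 2 with only the groups compared and 11 without resilient pool 3. Counted at an unadjusted p under 0.05, 13 members differed between resilient and control pools (12 lower and 1 higher), against 20.7% of all genes.

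The median log2 fold change of the 32 members was -0.28 in susceptible pools, with 29 of 32 below 0, and -0.20 in resilient pools, with 27 of 32 below 0. The median of all genes was -0.01 and -0.02. Relative to the mean of the 12 pan-neuronal markers, a scaling chosen after the data had been seen, the median of the members was 0.02 in susceptible and -0.02 in resilient pools, so that its direction in susceptible pools turned. That scaling moved the median of all genes to 0.29 and 0.15 and gave 4 called members in each comparison, of which 2 were lower and 2 higher in resilient pools and 1 was lower and 3 were higher in susceptible pools, where of all genes 1.74% were then called lower and 20.5% higher in resilient and 1.38% and 33.2% in susceptible pools. The 4 were Cplx2, Syn1, Unc13a and Snap91 in resilient pools and Cplx2, Syn3, Unc13a and Snap91 in susceptible pools, and the calls of the other members were lost. Of the 32 members, 17 in resilient and 15 in susceptible pools remained below 0. Both comparisons use the same 5 control pools. In bulk tissue, fewer cells of a type and less RNA per cell cannot be told apart. Without total RNA of these pools, the level of a transcript and the share of it bound to AGO2 cannot be told apart either.

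**Figure D1:**
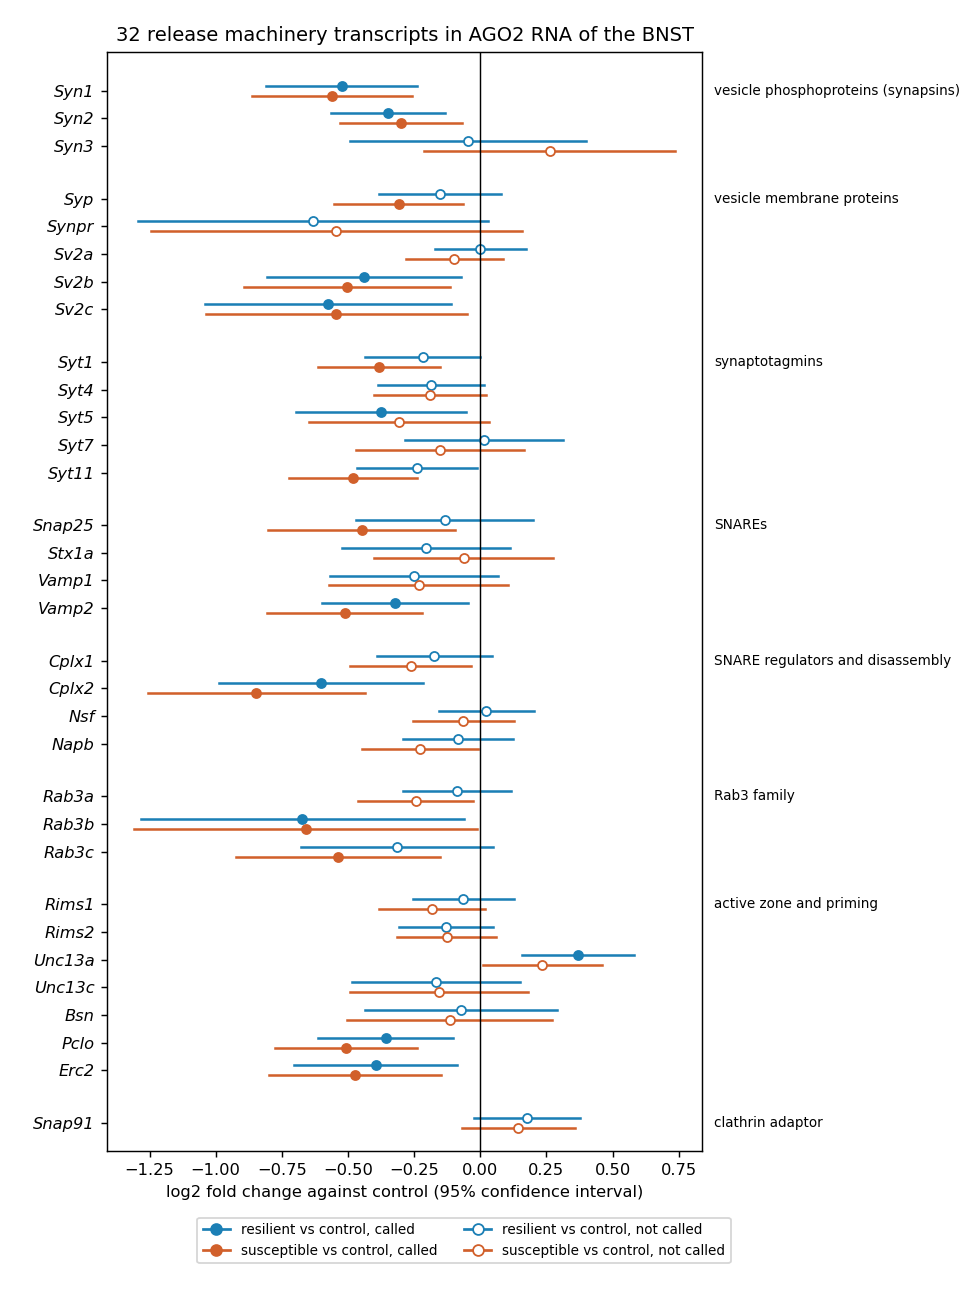
Log2 fold change of each of the 32 members against the control pools, by role (blue, resilient; orange, susceptible); lines are 95% confidence intervals from limma, and filled points are called at p under 0.05 with a fold change of at least 1.2. On the deposited scaling 27 (resilient) and 29 (susceptible) of 32 points lie below 0, and Unc13a is the only filled point above 0. Relative to the pan-neuronal markers, 17 and 15 of 32 were below 0, and the median of the susceptible points turned to 0.02.

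Each pool was also set against the full range of the controls. In susceptible pools 1 to 4, the number of members below all 5 control pools was 17, 24, 17 and 22 of 32, where 18.9%, 25.1%, 23.8% and 26.8% of all genes were that low. In resilient pools 1 to 5 the numbers were 16, 20, 11, 21 and 17, against 25.2%, 29.9%, 21.9%, 21.4% and 26.7% of all genes. The median deviation of the members from the control mean was -0.04 in resilient pool 3. In the other resilient pools it lay between -0.29 and -0.15. The median of resilient pool 3 covers members on both sides of the control range. Above every control pool were, among others, Sv2c (6.92 log2 CPM, against at most 6.67), Sv2b, Erc2 and Unc13a. Rab3c (9.08, against at least 9.66) and Snap25 were among those below. Without resilient pool 3 the members called in resilient pools were 14 and not 11, while the share of all genes called went from 17.7% to 26.0%, and the members with an adjusted p under 0.05 in limma were 11 and not 0. A complete separation, with every pool of the group under every control pool, was seen for 9 members in susceptible pools (5.05% of all genes) and for 3 in resilient pools (2.18% of all genes). The 3 were Syn1, Syt11 and Cplx2, and the 9 were Syp, Syt11, Vamp2, Cplx1, Cplx2, Rab3a, Rab3b, Rab3c and Pclo.

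Synapsins coat the vesicle and hold it in the reserve pool. Syn1 and Syn2 fell in both defeated groups and Syn3 was called in neither. Syn1 (chrX:20860511-20921004) was at 6.71, 6.59, 7.06, 7.06 and 6.86 log2 CPM in control pools 1 to 5, at 6.44, 6.09, 6.59, 6.22 and 6.33 in resilient pools 1 to 5 and at 6.22, 6.40, 6.65 and 5.91 in susceptible pools 1 to 4. All resilient pools lay below the lowest control pool, pool 3 only just, and of the susceptible pools pool 3 overlapped the controls. Syn1 fell by 0.52 (limma SE 0.14 and adjusted p = 0.0517, permutation p = 0.00794 by exact enumeration) in resilient and by 0.56 (limma SE 0.14 and adjusted p = 0.0387, permutation p = 0.0238 by exact enumeration) in susceptible pools. Syn2 (chr6:115134902-115282006) was at 7.85, 7.72, 7.72, 7.56 and 7.65 log2 CPM in control pools 1 to 5, at 7.37, 7.14, 7.62, 7.29 and 7.33 in resilient pools 1 to 5 and at 7.46, 7.30, 7.65 and 7.18 in susceptible pools 1 to 4. Resilient pool 3 and susceptible pool 3 overlapped the controls. It fell by 0.35 (limma SE 0.10 and adjusted p = 0.0770, permutation p = 0.0159 by exact enumeration) in resilient and by 0.30 (limma SE 0.11 and adjusted p = 0.123, permutation p = 0.0397 by exact enumeration) in susceptible pools, the latter a call that was lost without control pool 1 (-0.26, under the fold limit) or susceptible pool 4 (-0.23) and with voom on column totals (-0.22), and that turned to 0.01 relative to the pan-neuronal markers. Relative to these markers the value in resilient pools was -0.17 for Syn2, no longer called, and -0.35 for Syn1, which kept its call. The log2 fold change of Syn3 was -0.05 and 0.26, with 95% intervals from -0.49 to 0.40 and from -0.21 to 0.74. The exons of Syn3 overlap those of Timp3 on the opposite strand over 14.1% of their length, and the strand setting of the counting is not given in the sources used here. The library kit that the study's methods name for these mRNAs was a stranded one.

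Among the membrane proteins of the vesicle, Sv2b and Sv2c, members of the SV2 family of transporter-like glycoproteins, fell in both groups, and Syp (synaptophysin, the most widely used vesicle marker) fell in susceptible pools. Sv2a, the family member found at nearly all synapses, had log2 fold changes of 0.00 and -0.10 (95% intervals from -0.17 to 0.17 and from -0.28 to 0.08). Syp (chrX:7638471-7653256) was at 8.11, 8.13, 8.37, 8.10 and 8.01 log2 CPM in control pools 1 to 5, at 8.19, 8.05, 7.76, 7.79 and 8.15 in resilient pools 1 to 5 and at 7.96, 7.55, 7.96 and 7.86 in susceptible pools 1 to 4. All 4 susceptible pools lay below the lowest control pool, whereas 3 of 5 resilient pools lay within the control range. Syp fell by 0.31 (limma SE 0.12 and adjusted p = 0.134, permutation p = 0.00794 by exact enumeration) in susceptible pools, and its value in resilient pools was -0.15 (limma SE 0.11 and adjusted p = 0.443, permutation p = 0.230 by exact enumeration). The call was lost without control pool 3 (-0.25) or susceptible pool 2 (-0.21), with quantile normalisation (-0.26) or voom on column totals (-0.24), and relative to the pan-neuronal markers (-0.0041), and 16.8% of the exon bases of Syp overlap the antisense gene Gm14703. Sv2b (chr7:75114894-75309262) was at 6.57, 6.63, 6.28, 6.42 and 6.21 log2 CPM in control pools 1 to 5, at 5.55, 5.75, 6.67, 5.93 and 6.02 in resilient pools 1 to 5 and at 5.95, 5.74, 6.34 and 5.65 in susceptible pools 1 to 4. Resilient pool 3 was above all controls, the other 4 resilient pools were below them, and 1 susceptible pool overlapped. Sv2b fell by 0.44 (limma SE 0.17 and adjusted p = 0.164, permutation p = 0.0714 by exact enumeration) in resilient and by 0.50 (limma SE 0.18 and adjusted p = 0.126, permutation p = 0.0317 by exact enumeration) in susceptible pools. These calls were lost in the former without control pool 2 (-0.39) and without either of resilient pools 1 (-0.33) and 2 (-0.38), and in the latter without susceptible pool 4 (-0.41), and both were lost relative to the pan-neuronal markers (-0.27 and -0.20).

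Sv2c (chr13:95954594-96132577), the SV2 protein found mainly in the basal ganglia and other ventral regions, was at 6.58, 6.40, 6.52, 6.67 and 6.51 log2 CPM in control pools 1 to 5, at 5.66, 5.53, 6.92, 6.14 and 5.54 in resilient pools 1 to 5 and at 6.45, 6.17, 5.81 and 5.52 in susceptible pools 1 to 4. Resilient pool 3 was again the highest of all 14 pools, the other resilient pools were below every control pool, and susceptible pool 1 overlapped the controls. Sv2c fell by 0.58 (limma SE 0.22 and adjusted p = 0.155, permutation p = 0.0794 by exact enumeration) in resilient and by 0.54 (limma SE 0.23 and adjusted p = 0.193, permutation p = 0.0159 by exact enumeration) in susceptible pools. Leaving out resilient pool 2 or 5 (both -0.47) ended the call in resilient pools, and leaving out control pool 1 (-0.53) or 4 (-0.51) or susceptible pool 3 (-0.49) or 4 (-0.39) ended it in susceptible pools, as did voom on column totals (-0.47) or a fit without the trend (-0.54). Neither call held relative to the pan-neuronal markers (-0.40 and -0.24). Synpr (synaptoporin), a relative of synaptophysin, had log2 fold changes of -0.63 and -0.54 that were not called (95% intervals from -1.29 to 0.03 and from -1.24 to 0.16), with resilient pools ranging from 3.59 to 5.59.

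Synaptotagmins give release its calcium dependence. Of the 5 members of this family, Syt1 and Syt11 fell in susceptible pools and Syt5 in resilient pools. Syt1 (chr10:108497650-109010982), the calcium sensor of fast release, was at 9.15, 9.06, 9.01, 9.02 and 8.89 log2 CPM in control pools 1 to 5, at 8.83, 8.64, 8.98, 8.82 and 8.78 in resilient pools 1 to 5 and at 8.82, 8.37, 8.90 and 8.49 in susceptible pools 1 to 4. Susceptible pool 3 overlapped the controls by a small margin, and pools 2 and 4 were well below them. Syt1 fell by 0.38 (limma SE 0.11 and adjusted p = 0.0560, permutation p = 0.0159 by exact enumeration) in susceptible pools, and in resilient pools the value was -0.22 (limma SE 0.10 and adjusted p = 0.240, permutation p = 0.0159 by exact enumeration), under the fold limit. Syt11 (chr3:88744700-88775164), which acts in vesicle retrieval, was at 9.02, 9.002, 9.02, 9.07 and 8.94 log2 CPM in control pools 1 to 5, at 8.90, 8.65, 8.58, 8.86 and 8.86 in resilient pools 1 to 5 and at 8.76, 8.14, 8.72 and 8.50 in susceptible pools 1 to 4. All defeated pools lay below every control pool, and the SD of the control pools was 0.05. Syt11 fell by 0.48 (limma SE 0.11 and adjusted p = 0.0303, permutation p = 0.00794 by exact enumeration) in susceptible pools. In resilient pools its value of -0.24 (limma SE 0.11 and adjusted p = 0.221, permutation p = 0.00794 by exact enumeration) was under the fold limit, and without resilient pool 1 (-0.27) it was called. Syt5 had log2 fold changes of -0.38 in resilient pools, a call, and of -0.31 in susceptible pools. The calls of Syt1 (-0.08), Syt11 (-0.18) and Syt5 (-0.20) were lost relative to the pan-neuronal markers. Syt4, for which 14.5% of the exon bases overlap an antisense gene, was at -0.19 in both, and Syt7, the sensor of slow and asynchronous release, at 0.02 and -0.15, with no calls.

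All 4 SNAREs were below 0 in both comparisons on the deposited scaling, while relative to the pan-neuronal markers Snap25 in resilient pools (0.04) and Stx1a (0.24) and Vamp1 (0.07) in susceptible pools were above 0, and none of the 4 was called. Vamp2, the synaptobrevin of most forebrain vesicles, fell in both groups, Snap25 fell in susceptible pools, and Stx1a (syntaxin 1A) and Vamp1 were called in neither. Vamp2 (chr11:69088490-69092384) was at 8.37, 8.53, 8.80, 8.69 and 8.30 log2 CPM in control pools 1 to 5, at 8.39, 8.30, 8.17, 7.83 and 8.39 in resilient pools 1 to 5 and at 8.17, 7.74, 7.91 and 8.28 in susceptible pools 1 to 4. All 4 susceptible pools were below every control pool, and 2 of 5 resilient pools were. Vamp2 fell by 0.32 (limma SE 0.13 and adjusted p = 0.178, permutation p = 0.0714 by exact enumeration) in resilient and by 0.51 (limma SE 0.14 and adjusted p = 0.0480, permutation p = 0.0159 by exact enumeration) in susceptible pools. The call in resilient pools did not hold when control pool 3 (-0.26), control pool 4 (-0.28) or resilient pool 4 (-0.22) was left out, or with the replicate number as a block (-0.32, p over the threshold). Snap25 (chr2:136713453-136782428), a SNARE of the plasma membrane, was at 9.11, 9.26, 9.35, 9.28 and 8.97 log2 CPM in control pools 1 to 5, at 9.23, 9.34, 8.62, 8.74 and 9.37 in resilient pools 1 to 5 and at 9.03, 8.33, 8.66 and 8.97 in susceptible pools 1 to 4. Resilient pools 3 and 4 were below the controls and the other 3 inside or above their range, and susceptible pools 2 and 3 were below it. Snap25 fell by 0.45 (limma SE 0.17 and adjusted p = 0.133, permutation p = 0.0317 by exact enumeration) in susceptible pools, with a value of -0.31 and no call without susceptible pool 2, and was -0.13 (limma SE 0.16 and adjusted p = 0.659, permutation p = 0.421 by exact enumeration) in resilient pools. Stx1a (chr5:135023482-135051100) was at 4.77, 4.91, 5.02, 4.75 and 4.93 log2 CPM in control pools 1 to 5, at 4.73, 4.46, 5.23, 4.36 and 4.58 in resilient pools 1 to 5 and at 4.71, 4.89, 5.10 and 4.55 in susceptible pools 1 to 4. Resilient pools 1, 2, 4 and 5 were below every control pool and pool 3 was above them all, and the susceptible pools lay on both sides of the control range. The log2 fold changes were -0.21 (limma SE 0.15 and adjusted p = 0.454, permutation p = 0.238 by exact enumeration) in resilient and -0.06 (limma SE 0.16 and adjusted p = 0.863, permutation p = 0.595 by exact enumeration) in susceptible pools. Without resilient pool 3 the value of Stx1a in resilient pools was -0.35 and passed the test, as it did with sample weights (-0.29). Vamp1 was at -0.25 and -0.23 on the log2 fold change scale.

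The largest decrease of all 32 members in susceptible pools was that of Cplx2 (chr13:54371349-54383917), a complexin, which binds the assembled SNARE complex. It was at 9.59, 9.54, 9.43, 9.79 and 9.61 log2 CPM in control pools 1 to 5, at 9.10, 8.43, 9.27, 8.98 and 9.18 in resilient pools 1 to 5 and at 9.41, 8.53, 8.22 and 8.83 in susceptible pools 1 to 4. All 9 defeated pools were below every control pool, susceptible pool 1 only just, and susceptible pool 3 was the lowest of all, followed by resilient pool 2. The 7 striatal projection neuron markers described below also had their lowest median deviations in resilient pool 2 (-1.66) and susceptible pool 3 (-1.56). In resilient pool 3 these markers were high (0.55) while Cplx2 was below the controls. Whether Cplx2 and these markers are linked was not tested. Cplx2 fell by 0.85 (limma SE 0.19 and adjusted p = 0.0255, permutation p = 0.00794 by exact enumeration) in susceptible and by 0.60 (limma SE 0.18 and adjusted p = 0.0864, permutation p = 0.00794 by exact enumeration) in resilient pools. As a share of the control level, Cplx2 fell by 44.4% in susceptible and fell by 34.1% in resilient pools. Its relative Cplx1 had log2 fold changes of -0.17 in resilient and -0.26 in susceptible pools, both under the fold limit, although all susceptible pools were below the controls, and relative to the pan-neuronal markers it was at 0.00056 and 0.04. Nsf and Napb, which disassemble spent SNARE complexes, were at -0.06 and -0.23 in susceptible pools and at 0.02 and -0.08 in resilient pools, with no calls.

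Rab3 proteins mark vesicles that are ready to dock. Rab3c (chr13:110054187-110280996) was at 10.09, 10.25, 10.01, 9.79 and 9.66 log2 CPM in control pools 1 to 5, at 9.88, 9.82, 9.08, 9.61 and 9.86 in resilient pools 1 to 5 and at 9.63, 8.87, 9.57 and 9.63 in susceptible pools 1 to 4. The 4 susceptible pools were below the lowest control pool, pools 1 and 4 only just, and susceptible pool 2 and resilient pool 3 lay far below the rest of their groups. Rab3c fell by 0.54 (limma SE 0.18 and adjusted p = 0.100, permutation p = 0.0159 by exact enumeration) in susceptible pools, a call that was lost without susceptible pool 2 (-0.35), and its value in resilient pools was -0.31 (limma SE 0.17 and adjusted p = 0.312, permutation p = 0.135 by exact enumeration), which passed the test with quantile normalisation or voom on column totals (both -0.33) and without control pool 5 (-0.39) or susceptible pool 2 (-0.31). Rab3b, the least abundant member in reads, fell in both groups, by 0.67 in resilient and by 0.66 in susceptible pools on the log2 scale (adjusted p = 0.200 and 0.227 from limma). The calls of Rab3c in susceptible pools (-0.23) and of Rab3b in both (-0.50 and -0.36) were lost relative to the pan-neuronal markers. Rab3a, the main Rab of synaptic vesicles, was at -0.09 and -0.24, under the fold limit, with all susceptible pools below the controls.

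In the active zone the members went in different directions. Pclo and Erc2 (ELKS2) fell in both groups, Unc13a rose in resilient pools, and Bsn, Rims1, Rims2 and Unc13c were not called. Pclo (chr5:14514918-14863459), the giant scaffold piccolo, was at 8.62, 8.57, 8.57, 8.43 and 8.48 log2 CPM in control pools 1 to 5, at 8.19, 7.94, 8.50, 8.15 and 8.10 in resilient pools 1 to 5 and at 7.98, 8.10, 8.38 and 7.65 in susceptible pools 1 to 4. Susceptible pools were all below the controls, and of the resilient pools pool 3 overlapped. Pclo fell by 0.36 (limma SE 0.12 and adjusted p = 0.114, permutation p = 0.0238 by exact enumeration) in resilient and by 0.51 (limma SE 0.13 and adjusted p = 0.0365, permutation p = 0.00794 by exact enumeration) in susceptible pools. Erc2 (chr14:27622428-28478537) was at 7.23, 7.06, 6.90, 7.21 and 7.12 log2 CPM in control pools 1 to 5, at 6.41, 6.49, 7.30, 6.84 and 6.50 in resilient pools 1 to 5 and at 6.94, 6.56, 6.56 and 6.46 in susceptible pools 1 to 4. Resilient pool 3 was the highest of all pools, and susceptible pool 1 overlapped the controls. Erc2 fell by 0.40 (limma SE 0.15 and adjusted p = 0.141, permutation p = 0.0794 by exact enumeration) in resilient and by 0.47 (limma SE 0.15 and adjusted p = 0.0896, permutation p = 0.0159 by exact enumeration) in susceptible pools. No call of Pclo (-0.18 and -0.20) or Erc2 (-0.22 and -0.17) held relative to the pan-neuronal markers. Unc13a (chr8:71624417-71671757) was at 8.69, 8.59, 8.79, 9.10 and 8.87 log2 CPM in control pools 1 to 5, at 9.09, 9.06, 9.34, 9.06 and 9.33 in resilient pools 1 to 5 and at 9.11, 9.12, 8.95 and 8.999 in susceptible pools 1 to 4. In resilient pools 2 of 5 values were above every control pool and 3 were just under control pool 4. Unc13a rose by 0.37 (limma SE 0.10 and adjusted p = 0.0597, permutation p = 0.0317 by exact enumeration) in resilient pools, and in susceptible pools, where its value was 0.23 (limma SE 0.11 and adjusted p = 0.217, permutation p = 0.0635 by exact enumeration), it was under the fold limit. In susceptible pools Unc13a passed the test with quantile normalisation (0.34), with voom on column totals (0.31), without control pool 4 (0.31), without susceptible pool 3 (0.27) and relative to the pan-neuronal markers (0.54). The other 4 ranged from -0.18 (Rims1, susceptible) to -0.06 (Rims1, resilient), with bassoon (Bsn), the partner of piccolo, at -0.07 and -0.12, and all 4 were above 0 relative to the pan-neuronal markers. Snap91 (AP180), which loads clathrin onto retrieved vesicles, was at 0.18 and 0.14 without a call, and was called at 0.35 and 0.45 on the latter scaling.

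**Figure D2:**
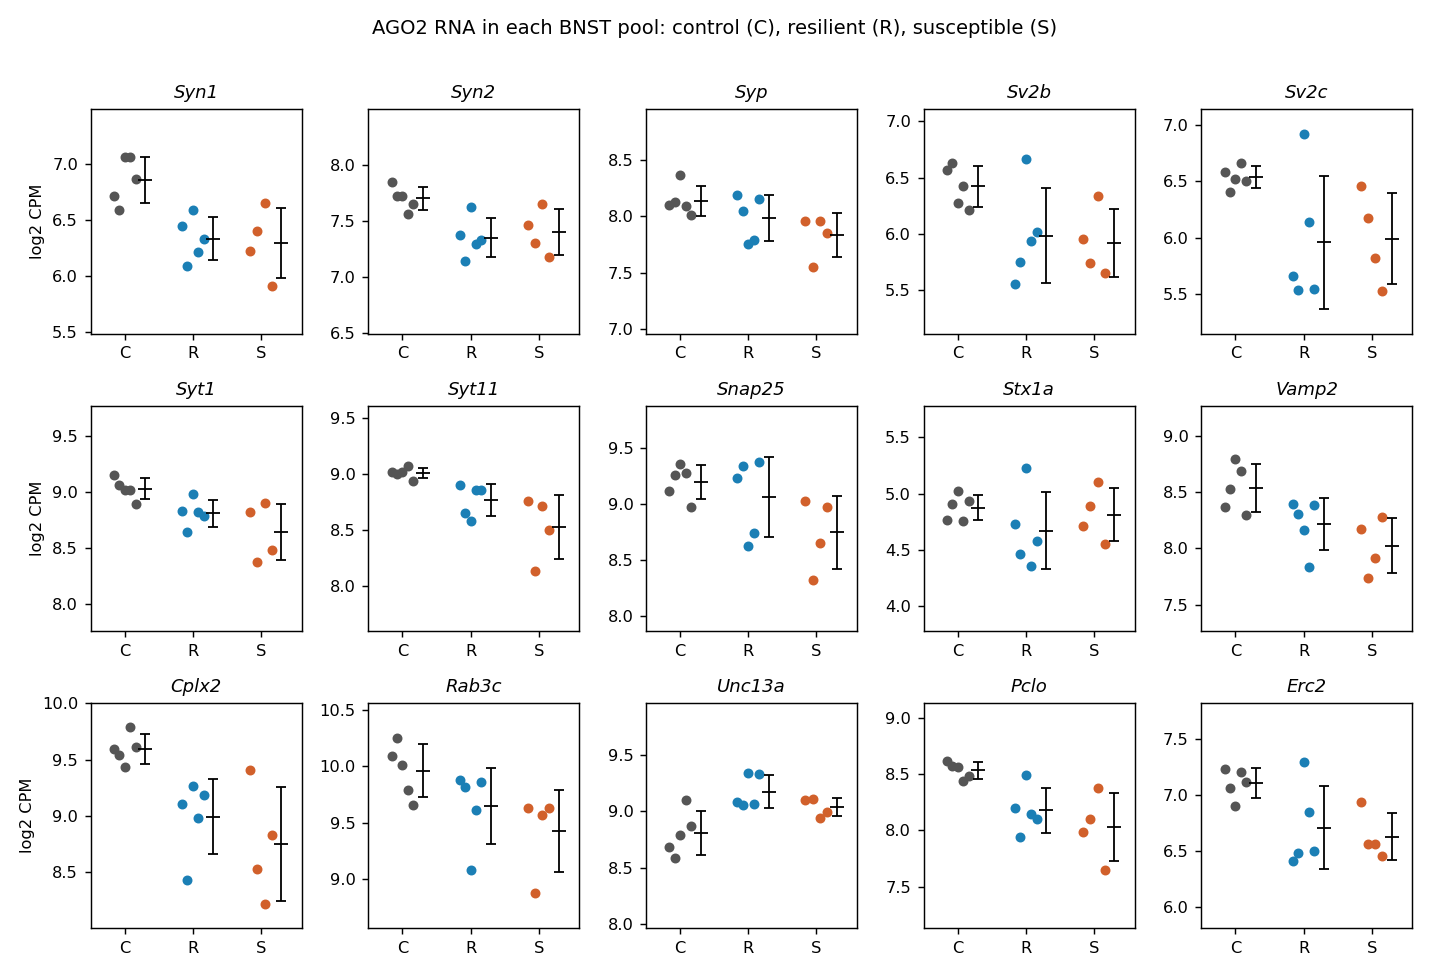
Log2 CPM of 15 members in each of the 14 pools (C, control, 5 pools; R, resilient, 5; S, susceptible, 4); every point is a pool, the bars to the right give the mean and SD, and each panel spans 2 log2 units. All defeated pools of Cplx2 and Syt11 lie below all control pools, and resilient pool 3 is the high point of Sv2b, Sv2c and Erc2.

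The question whether susceptible pools differed from resilient pools gave 0 called members, where 2.14% of all genes were called. At an unadjusted p under 0.05 there was 1 member, against 2.42% of all genes, and with sample weights 1 member was called. The 1 member was Syt11, at -0.24 (limma SE 0.11 and adjusted p = 1.000, permutation p = 0.127 by exact enumeration) in susceptible against resilient pools. The next smallest p belonged to Snap25 (-0.31 (limma SE 0.17 and adjusted p = 1.000, permutation p = 0.198 by exact enumeration); 95% interval from -0.67 to 0.04). The median difference of the members was -0.08, turning to 0.05 relative to the pan-neuronal markers, against 0.01 for all genes. Without resilient pool 3 the number of members called was 5, and 5.71% of all genes were called. The calls of Snap25, Syt1, Syt11, Syp and Rab3c in susceptible and not in resilient pools are thus not shown to differ between these groups.

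Levels can be compared between members only per length of transcript. As log2 CPM per kilobase of exon, Cplx2 was the highest member in control pools (7.29), followed by Cplx1 (6.94), Syt11 (6.63), Vamp2 (6.61) and Snap25 (6.43), and Syn3 (0.17), Rab3b (1.55) and Synpr (1.86) were the lowest. Vamp2 stood closer than its SD in control pools (0.21) to Syt11 and to Snap25. Snap25 and Rab3c (6.37) were closer than the SD of Rab3c (0.24), so that these neighbours were not separated. Among the priming factors Unc13a (5.15) was above Unc13c (4.24), and among the scaffolds Bsn (5.26) was above Pclo (4.05) and Erc2 (3.82).

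**Figure D3:**
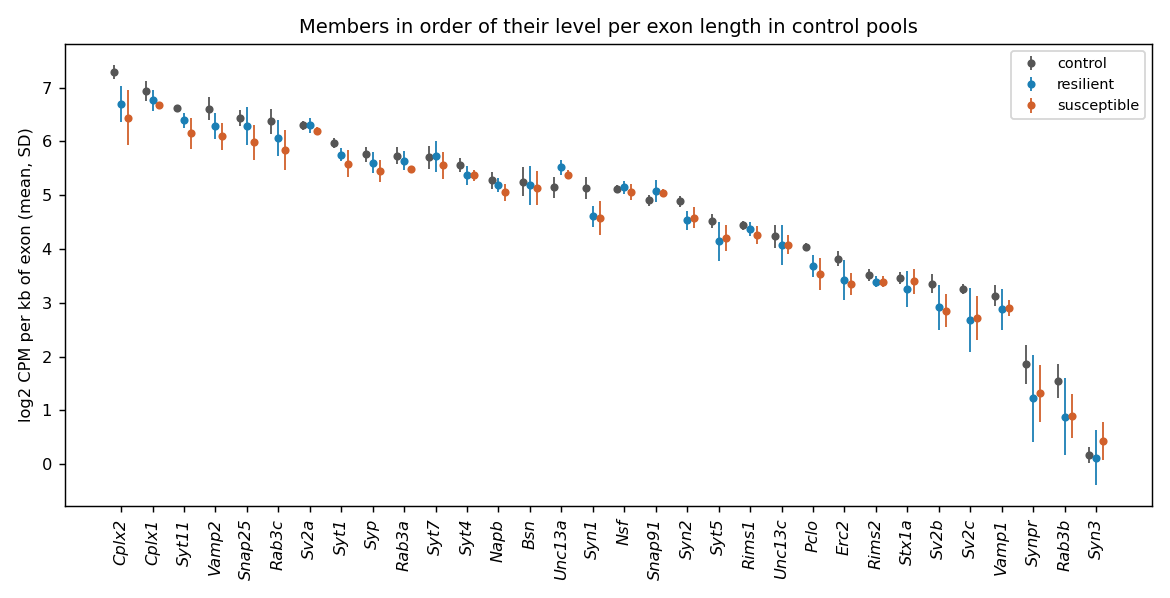
Level of each member as log2 CPM per kilobase of exon (mean and SD of the 5 control, 5 resilient and 4 susceptible pools), in descending order of the control mean. Cplx2 leads at 7.29 and Syn3 is last at 0.17 in control pools.

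Around the members, 107 further genes of the release pathway were followed in 6 lists. Of these, 18 fell and 2 rose in resilient pools, and 18 fell and 3 rose in susceptible pools on the deposited scaling, with medians of -0.13 and -0.11. Relative to the pan-neuronal markers more of them were called higher than lower in both comparisons, as given by list below. On that scaling 1.74% of all genes were called lower and 20.5% higher in resilient pools, and 1.38% and 33.2% in susceptible pools. As a background for each list, 9.04% of all genes were called lower and 8.65% higher in resilient pools, and 9.28% and 9.65% in susceptible pools, so that counts of 2 among 20 genes are near the share of all genes. The other proteins of the vesicle membrane moved most evenly: 6 of 14 fell in each comparison, and all 14 were below 0 on the deposited scaling, with medians of -0.29 in resilient and -0.31 in susceptible pools. Relative to the pan-neuronal markers, 12 and 7 of these 14 were below 0 (medians -0.11 and -0.0025), and 1 (Mal2) and 0 were called lower and 0 and 1 higher. Of transmitter transporters and proton pump subunits, 3 of 19 fell in resilient and 4 in susceptible pools (medians -0.18 and -0.21). Of the SNAREs and their regulators, 2 and 3 of 20 fell (medians -0.10 and -0.13), and of the other synaptotagmins 2 and 0 of 10 (medians -0.25 and -0.20). In the endocytosis list 5 and 4 of 23 fell (medians -0.06 and -0.08), while relative to the pan-neuronal markers 1 and 0 were called lower and 4 and 6 higher. The active zone list had medians of 0.05 and 0.06, with 2 of 21 genes higher and 0 lower in resilient pools and 3 higher and 1 lower in susceptible pools. Relative to the pan-neuronal markers its medians were 0.23 and 0.36, with 8 and 10 of 21 genes called higher and 0 lower. On the scaling to the pan-neuronal markers the medians of the SNARE and endocytosis lists (0.07 and 0.11 in resilient, 0.18 and 0.23 in susceptible pools) turned positive, as did those of the transporter and synaptotagmin lists in susceptible pools (0.10 in both). In the SNARE list 1 gene was then called lower and 1 higher in resilient pools, and 0 and 5 in susceptible pools. In the transporter list 0 were called lower, and 1 and 3 higher. In the synaptotagmin list 0 were called lower, and 0 and 1 higher.

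The 10 genes of these lists with the smallest p included 5 vesicle proteins that were called in resilient pools. Mal2, a raft protein of vesicles, fell by 0.60 (limma SE 0.13 and adjusted p = 0.0289, permutation p = 0.0159 by exact enumeration) there and by 0.41 (limma SE 0.13 and adjusted p = 0.0879, permutation p = 0.00794 by exact enumeration) in susceptible pools. The secretory carrier protein Scamp1 fell by 0.34 (limma SE 0.11 and adjusted p = 0.109, permutation p = 0.0159 by exact enumeration) and by 0.45 (limma SE 0.12 and adjusted p = 0.0439, permutation p = 0.00794 by exact enumeration), and its relative Scamp5 by 0.27 (limma SE 0.08 and adjusted p = 0.0751, permutation p = 0.00794 by exact enumeration) in resilient pools, with -0.25 (limma SE 0.09 and adjusted p = 0.0998, permutation p = 0.00794 by exact enumeration) in susceptible pools, where it was called when control pool 2 or susceptible pool 1 was left out (both -0.27). In resilient pools the call of Scamp1 was lost without resilient pool 2 (-0.25), and that of Scamp5 without control pool 3 (-0.26), resilient pool 2 (-0.23) or resilient pool 4 (-0.24). Syngr3 (synaptogyrin 3) fell by 0.43 (limma SE 0.13 and adjusted p = 0.0769, permutation p = 0.0397 by exact enumeration) in resilient pools and Tprgl (mover, a vesicle-attached protein) by 0.45 (limma SE 0.14 and adjusted p = 0.0806, permutation p = 0.0317 by exact enumeration). In susceptible pools Tprgl fell by 0.39 (limma SE 0.14 and adjusted p = 0.126, permutation p = 0.00794 by exact enumeration), a call lost without susceptible pool 4 (-0.31) or with voom on column totals (-0.32). With that scaling to the pan-neuronal markers the call of Mal2 held in resilient pools (-0.43) and not in susceptible pools (-0.11), and the calls of Scamp1 (-0.17 and -0.15), Tprgl (-0.28 and -0.09), Scamp5 (-0.10) and Syngr3 (-0.26) were lost. These were followed by Dnajc5 (cysteine string protein, a chaperone of SNAP-25), which fell by 0.29 (limma SE 0.09 and adjusted p = 0.0743, permutation p = 0.0159 by exact enumeration) in susceptible pools, was not called without susceptible pool 3 (-0.26), with quantile normalisation (-0.26) or with voom on column totals (-0.22), and turned to 0.01 relative to the pan-neuronal markers. In resilient pools Dnajc5 gained a call when resilient pool 3 was left out (-0.28).

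Vamp7, a SNARE of other trafficking routes whose gene is on an unplaced scaffold of the assembly, fell by 0.72 (limma SE 0.15 and adjusted p = 0.0270, permutation p = 0.00794 by exact enumeration) in resilient pools and by 0.58 (limma SE 0.16 and adjusted p = 0.0504, permutation p = 0.00794 by exact enumeration) in susceptible pools. The clathrin adaptor subunit Ap2s1 fell by 0.59 (limma SE 0.17 and adjusted p = 0.0742, permutation p = 0.0238 by exact enumeration) and by 0.45 (limma SE 0.18 and adjusted p = 0.174, permutation p = 0.0159 by exact enumeration), the latter call lost without control pool 3 (-0.37) or susceptible pool 4 (-0.35) or with voom on column totals (-0.36). Scaled to the pan-neuronal markers, Vamp7 (-0.55) and Ap2s1 (-0.42) were still called in resilient pools, and in susceptible pools (-0.27 and -0.14) they were not. The proton pump subunit Atp6v1g2 fell by 0.31 (limma SE 0.09 and adjusted p = 0.0603, permutation p = 0.00794 by exact enumeration) in susceptible pools, a call lost with voom on column totals (-0.25) and relative to the pan-neuronal markers (-0.0072). Ppfia1 (liprin-alpha-1, an active zone organiser) rose by 0.27 (limma SE 0.08 and adjusted p = 0.0859, permutation p = 0.00794 by exact enumeration) in resilient pools, just over the fold limit, and was at 0.25 (limma SE 0.09 and adjusted p = 0.104, permutation p = 0.0238 by exact enumeration) in susceptible pools. Its call was lost without control pool 2 (0.26), 3 (0.25) or 5 (0.26) or resilient pool 1 (0.23) and with quantile normalisation (0.24) or voom on column totals (0.26), and in the susceptible comparison it passed the test when control pool 1 (0.27) or susceptible pool 1 (0.32) was left out, with the same 2 normalisations (0.27 and 0.33) and relative to the pan-neuronal markers (0.56).

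**Figure D4:**
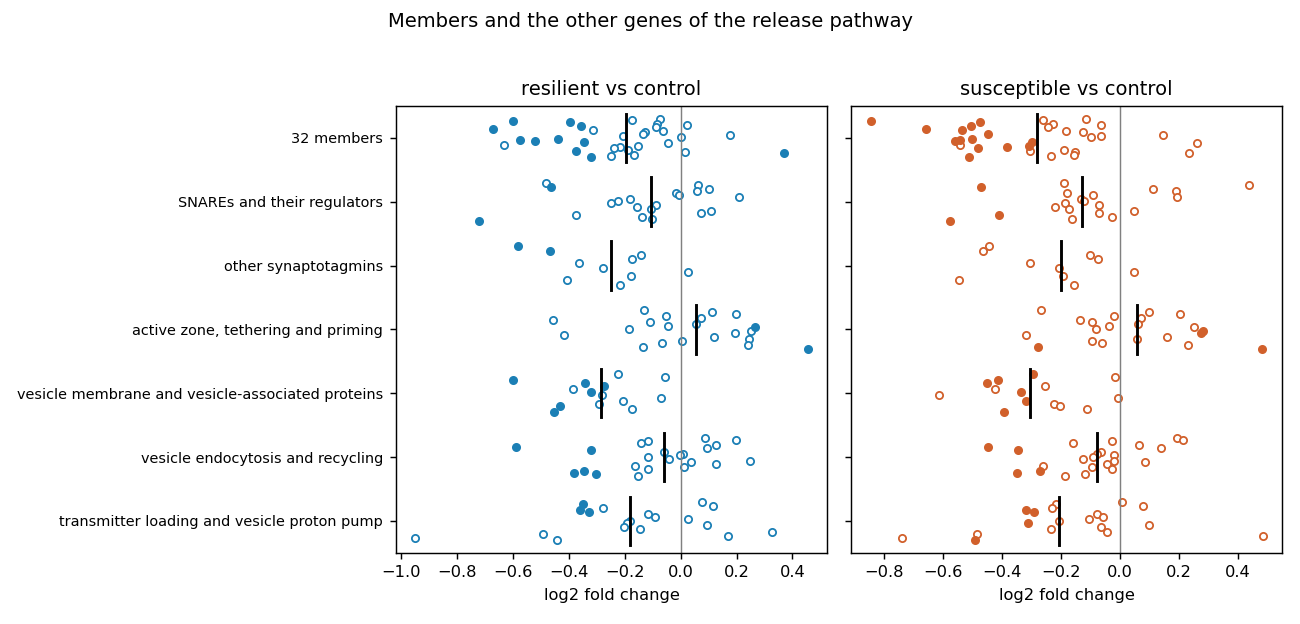
Log2 fold change of the 32 members and of 107 other genes of the release pathway in resilient (left) and susceptible (right) pools against controls; every point is a gene, filled points are called, and black lines are the medians of the lists. On the deposited scaling the vesicle membrane list lies wholly below 0 in both panels (12 and 7 of 14 relative to the pan-neuronal markers), and the active zone list is centred at 0.05 and 0.06. Relative to the pan-neuronal markers the active zone list is centred at 0.23 and 0.36, with 8 and 10 of 21 genes called higher.

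Markers of cell types were followed in the same pools. Of the 12 pan-neuronal markers, 4 fell in resilient pools (median -0.22) and 7 in susceptible pools (median -0.36), 3 of them at an adjusted p under 0.05. The neurofilament genes Nefl and Nefh, Thy1 and Rbfox3 fell in both, whereas Stmn2 was at 0.01 and 0.03 and Uchl1 at -0.10 and -0.08. The summed CPM of the list had medians of 2847 in control, 2560 in resilient and 2344 in susceptible pools, with Map2 as its most abundant gene and no marker at 0. By pool, the median deviation of these markers was -0.01, -0.17, -0.33, -0.30 and 0.03 in resilient pools and -0.16, -0.56, -0.25 and -0.41 in susceptible pools. The median deviation of the members in the same pools was -0.15, -0.29, -0.04, -0.29 and -0.18 in resilient pools and -0.17, -0.36, -0.17 and -0.29 in susceptible pools. By these medians both lists were below the control mean in susceptible pools and in resilient pools 2 and 4. In resilient pools 1 and 5 the markers were near it and the members below. In resilient pool 3 the markers were low and the median of the members was near it, with members on both sides of the control range. The part of neuronal content in the result was not tested. The members' own summed CPM had medians of 9086, 8158 and 7339 in the same order.

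Markers of neurons from neighbouring regions and of non-neuronal cells also varied. The 7 markers of striatal projection neurons had medians of -0.45 and -0.62, with 2 fallen in each comparison, and their median deviation ran from -1.66 (resilient pool 2) to 0.55 (resilient pool 3). Relative to the pan-neuronal markers none of these 7 was called, and all 7 were below 0 in both comparisons (medians -0.28 and -0.31). Their most abundant gene was Pde10a, and their summed CPM had medians of 2346, 1845 and 1613. Of the choroid plexus markers, 1 of 7 fell in resilient and 6 of 7 in susceptible pools, with medians of -0.88 and -2.14, although the control pools themselves ran from -1.79 to 1.65. Scaled to the pan-neuronal markers, 0 and 4 choroid plexus markers were called lower (medians -0.71 and -1.84), where 1.74% and 1.38% of all genes were. The choroid plexus lies in the brain ventricles. Its markers summed to medians of only 138, 31.6 and 27.2 CPM, were led by Clic6, and up to 2 of 7 were at 0 reads in a pool. Ependymal markers fell in 3 of 5 genes in both comparisons (medians -0.56 and -0.95, led by Rsph1), and relative to the pan-neuronal markers in 2 and 3 (medians -0.39 and -0.65).

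Of 8 oligodendrocyte markers, 3 fell and 1 rose in resilient pools and 4 fell and 1 rose in susceptible pools (medians -0.14 and -0.30), with summed medians of 4695, 4350 and 3048 CPM. Relative to the pan-neuronal markers 1 fell and 2 rose in resilient pools, and 1 fell and 3 rose in susceptible pools (medians 0.03 and 0.01). As a background for all counts on this scaling, 1.74% of all genes were called lower and 20.5% higher in resilient pools. In susceptible pools these shares were 1.38% and 33.2%. Of 8 astrocyte markers, led by Slc1a2, 1 fell in resilient pools, and 4 fell and 1 rose in susceptible pools (medians -0.18 and -0.29). Scaled to the pan-neuronal markers, 0 were called in resilient pools, and 1 fell and 2 rose in susceptible pools (medians -0.0037 and 0.01). Of the GABA neuron markers, 1 and 3 of 8 fell (medians -0.19 and -0.17), while relative to the pan-neuronal markers 0 were called lower and 1 and 2 higher (medians -0.02 and 0.13). No gene was called among the 5 measured glutamate neuron markers, led by Slc17a6 (medians 0.33 and -0.08), and the sixth gene of that list, Neurod6, was not in the table. Scaled to the pan-neuronal markers, none of the 5 was called either (medians 0.50 and 0.22). The thalamic and septal list, led by Rora, had 1 gene higher and 1 lower and then 2 lower of 7 (medians -0.09 and -0.17). With the pan-neuronal scaling 1 was lower and 1 higher in resilient pools, and 2 were lower and 1 higher in susceptible pools (medians 0.08 and 0.14). Oligodendrocyte precursors (led by Pdgfra, 2 and 2 of 5 lower, medians -0.06 and 0.05), microglia (led by Cx3cr1, medians -0.07 and -0.11), endothelium (led by Flt1, 0 and 1 of 7 lower, medians -0.09 and -0.20) and red blood cells (led by Hbb-bs, 2 and 0 of 5 lower, medians -0.14 and -0.30) completed the lists. With the pan-neuronal scaling 0 and 2 precursor markers (medians 0.12 and 0.35) and 1 and 1 of endothelium (0.09 and 0.11) were called higher and 0 lower. Of the red blood cell markers 1 and 0 were then called lower and 0 higher (medians 0.03 and 0.0046). Of the 8 microglia markers 1 fell and 1 rose in resilient pools and 2 fell and 1 rose in susceptible pools. Of all genes 9.04% fell and 8.65% rose in the former and 9.28% and 9.65% in the latter. Scaled to the pan-neuronal markers, 0 microglia markers were called lower and 1 and 2 higher (medians 0.10 and 0.19). The part of these cell types in the changes of the members was not tested.

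**Figure D5:**
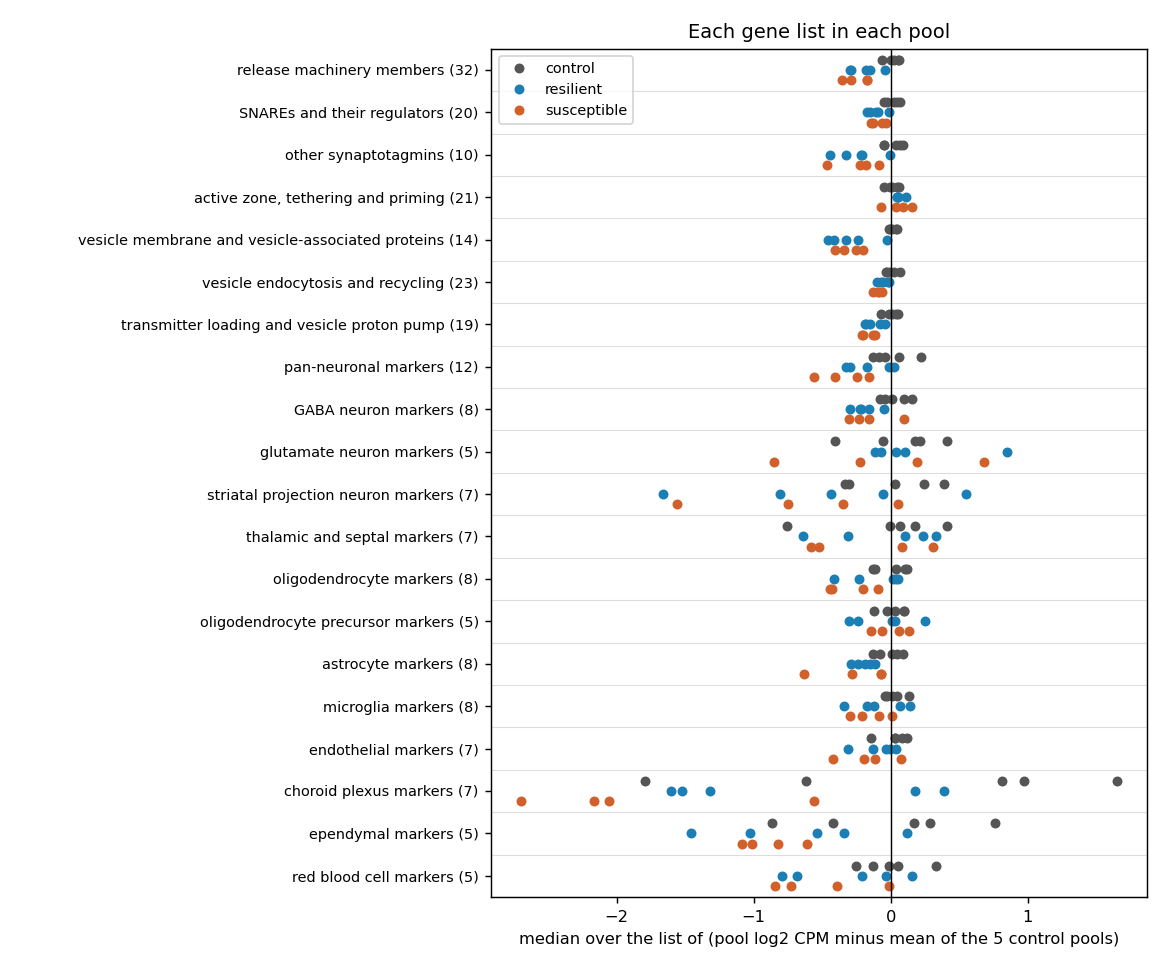
Median deviation of each gene list from the mean of the 5 control pools, in log2 units; every point is 1 of the 14 pools (grey, control; blue, resilient; orange, susceptible), and the number of genes is in brackets. The members run from -0.36 to -0.04 in defeated pools, and the pan-neuronal markers from -0.56 to 0.03.

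The miRNA data were searched for the 5 miRNAs named for release genes. Of the 788 miRNAs measured, 9.52% were called in the resilient comparison and 4.7% in the susceptible one. miR-137-3p, known for targets in the vesicle cycle, had 8.23 ± 0.21 log2 CPM in control pools (SD, n = 5), 8.20 ± 0.28 in resilient pools (n = 5) and 8.41 ± 0.36 in susceptible pools (n = 3). miR-153-3p, known to act on Snap25, had 11.44 ± 0.22, 11.60 ± 0.19 and 11.55 ± 0.12. miR-485-5p, known to act on Sv2a, had 11.56 ± 0.15, 11.59 ± 0.11 and 11.56 ± 0.18. None of these 3 was called, with 95% intervals of the log2 fold change in susceptible pools from -0.20 to 0.54, from -0.17 to 0.39 and from -0.24 to 0.23.

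The miR-34 family spread more. miR-34a-5p was at 6.90, 7.40, 7.81, 7.54 and 6.77 log2 CPM in control pools, at 8.28, 8.07, 6.53, 7.57 and 8.05 in resilient pools and at 7.30, 7.84 and 8.22 in susceptible pools 1, 2 and 4. The groups overlapped, and the log2 fold changes of 0.42 and 0.50 were not called (adjusted p = 0.606 and 0.937 from limma), while without resilient pool 3 the value in resilient pools was 0.71 and that in susceptible pools 0.50, and both passed the test. miR-34c-5p was at 12.07, 11.45, 11.15, 11.83 and 9.91 in control pools, at 12.16, 10.56, 10.85, 10.06 and 9.83 in resilient pools and at 9.48, 9.51 and 11.02 in susceptible pools. In susceptible pools miR-34c-5p fell by 1.28 log2 units (limma SE 0.48 and adjusted p = 0.884, permutation p = 0.0893 by exact enumeration, where 0.0179 is the smallest possible), and its log2 fold change in resilient pools was -0.59. The call was lost without susceptible pool 1 (-1.01) or 2 (-1.03) and in a fit without the mean-variance trend (-1.28), and the value in resilient pools passed the test without control pool 5 (-0.93) or resilient pool 1 (-0.96). These miRNAs were measured in the same kind of pools, and no link between a miRNA and a member was tested.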

How the data were processed

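AGO2-bound RNA was immunoprecipitated from BNST punches, each library being a pool of 3 mice. Per the labels and the study's methods, mRNA reads were aligned with STAR to GRCm38 and counted per gene with HTSeq, whose strand setting is not given in the sources used here. The authors deposited log2 CPM values, normalised with voom, in which whole reads were recovered for 100% of values within 0.0001 reads. The study corrected the AGO2 mRNA data for cohort with ComBat, but that correction was not in these values and could not be repeated, as the labels give no cohort. Group and cohort differences therefore cannot be told apart in the fold changes given here. For the AGO2 miRNA data the study adjusted for surrogate variables instead, and that adjustment was not repeated. A miRNA sample was excluded by the study because its library preparation failed.

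Differences were fitted with limma 3.58.1 (R 4.3.3) on all 16587 genes, with the 3 groups in 1 model and a mean-variance trend, and p-values were adjusted by Benjamini-Hochberg over all genes. Calls required p under 0.05 together with a change of 1.2-fold or more. Exact permutation tests were two-sided and unadjusted, and with 5 against 4 pools could not go below 0.00794. Values of every pool are given for the called members, up to 14 by smallest p, and for Syp, Snap25, Syt1, Vamp2 and Stx1a, and of the pathway lists the 10 genes with the smallest p are named. Members and lists were chosen with earlier results of these data known. The p-values measure the spread between pools. The most abundant gene of some marker lists is not reported here. Figures were drawn with matplotlib 3.10.9.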

Additional observations from a re-analysis of the deposited data

Results flagged for a closer look

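Of 136 groups of 4 or 5 pools examined, 11 held a pool far from the others, where chance flags about 1 in 20 (6.8 expected). All values are log2 CPM. Among the members, Synpr was low in control pool 3 (4.45, against a median of 5.26 in the other pools of its group) and Syt7 in control pool 5 (8.24 against 8.73). Sv2a was high in resilient pool 5 (8.75 against 8.45). Vamp1 was high in susceptible pool 4 (6.46 against 6.17), in which Bsn was low (8.67 against 9.26). Napb and Rab3c were both low in susceptible pool 2 (7.63 against 7.94 and 8.87 against 9.63). Among the pathway genes, Ppfia1 was high in resilient pool 1 (7.56 against 7.37), Syngr3 in resilient pool 3 (6.27 against 5.56) and Dnajc5 in susceptible pool 1 (7.86 against 7.58), and Mal2 was low in control pool 4 (5.69 against 5.91).

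The difference between susceptible and resilient pools passed an unadjusted test for Syt11, at -0.24 on the log2 scale (limma p = 0.04997, adjusted p = 1.00, exact permutation p = 0.127).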

How the results depend on the processing

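With resilient pools against controls, the number of members with an adjusted p under 0.05 in limma (0) became 8 with sample weights, 1 with quantile normalisation, 2 with genes averaging 2 or more log2 CPM and 2 with only the groups compared, and ranged from 0 to 11 when 1 pool was left out. With susceptible pools it (5) became 0 without the trend, 8 with sample weights, 3 with quantile normalisation, 3 with voom on column totals and 8 with only the groups compared, and ranged from 0 (without control pool 1, control pool 5, susceptible pool 2 or susceptible pool 4) to 9 (without resilient pool 3). Members called ranged from 8 to 14 and from 11 to 18 when 1 pool was left out, and their medians from -0.22 to -0.17 and from -0.29 to -0.24. For all genes these calls ranged from 2336 to 4309 and from 2383 to 3536.

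Between susceptible and resilient pools, members called (0) became 1 with sample weights and ranged from 0 to 5, and the median from -0.12 to -0.05, when 1 pool was left out. No member had an adjusted p under 0.05 in any of these fits. All genes called (355) became 539 with voom on column totals and 219 with the filter on the mean, and ranged from 288 to 947. The causes were not tested.

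Relative to the pan-neuronal markers, a scaling chosen after seeing the data, members called became 4 (2 lower, 2 higher) and 4 (1 lower, 3 higher), those with an adjusted p under 0.05 became 1 and 2, and the medians became -0.023 (resilient) and 0.024 (susceptible, reversed). The median between susceptible and resilient pools turned to 0.049, all genes called in susceptible pools became 5744, and in susceptible pools Syn2 turned to 0.0051 and Dnajc5 to 0.0103. Of the values of single genes and miRNAs (60 results), 1191 were unchanged in call and direction under the other alternatives, 22 gained the call and 47 lost it. Relative to the pan-neuronal markers, 27 values of single genes lost the call, 2 gained it, 2 called values changed sign (Syn2 and Dnajc5) and 19 were unchanged in call. Values that were not called changed sign too, among them Snap25 (0.04) and Syp (0.02) in resilient pools and Stx1a (0.24), Scamp5 (0.05) and Syngr3 (0.10) in susceptible pools.

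Same-numbered pools did not deviate together (correlations from -0.17 to 0.14), so that they share only a number. With a replicate block, 10, 13 and 0 members were called in the 3 comparisons, and 2 had an adjusted p under 0.05 in susceptible pools against controls. Depth limits Rab3b most, with as few as 15 reads in a pool.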
